A study of Mus musculus with 5 samples.

Results

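Transforming growth factor beta (TGF-beta) signalling was examined in embryonic mouse heart ventricles through 10 genes chosen by name from the 18307 genes of the RefSeq count table: the ligands Tgfb1, Tgfb2 and Tgfb3, the receptors Tgfbr1, Tgfbr2 and Tgfbr3, the signal-carrying Smad2 and Smad3, and the inhibitory Smad6 and Smad7. Their 12 RefSeq transcripts were taken from the transcript table of 25187 transcripts by gene symbol. The rule of choice names genes and uses no measured value, but it was set with earlier results of these data known. All 10 genes passed the filter on low counts.

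Ligand dimers are secreted in a latent form and released outside the cell. A released ligand brings together the kinases Tgfbr2 (type II) and Tgfbr1 (type I), with Tgfbr3, also called betaglycan, presenting the ligand, Tgfb2 above all. Tgfbr1 then phosphorylates Smad2 and Smad3, which enter the nucleus with Smad4. Smad6 and Smad7 are inhibitory Smads, induced by the pathway and by the related bone morphogenetic protein (BMP) signals. In the midgestation heart the pathway is known for driving endocardial cells into the cushion mesenchyme from which valves form, and betaglycan is needed for the coronary vessels.

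All libraries came from embryos of CD-1 mice, an outbred strain without an engineered allele. Dams were injected daily from embryonic day 6.5 to 9.5, and ventricles were collected at day 10.5. The 2 vehicle libraries came from dams given saline, and the 3 caffeine libraries from dams given 20 mg/kg caffeine, which blocks adenosine receptors. Ventricles of embryos of the same dams were pooled, and each pool is 1 library. RefSeq gene totals lay between 21713381 and 25048134 counts, and the 10 genes together took 0.0874% and 0.0972% of them in vehicle and 0.0974%, 0.0935% and 0.0962% in caffeine. Cardiomyocyte markers (Tnnt2, Myh6, Myh7, Actc1, Nkx2-5, Myl7, Ryr2) summed to 25200 to 31300 counts scaled to library size (CPM), and endocardial markers to 1330 to 1590 CPM. Blood cells remained in the pools, with erythroid markers at 3560 to 6170 CPM. Foregut and hepatic endoderm markers were at 117 CPM in vehicle replicate 2 and at 7.22 to 37.6 CPM in the other libraries. The tissue is a mixture, so fewer cells of a type and less RNA per cell cannot be told apart in any value below.

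Tgfbr2 has a pair of RefSeq transcripts that differ by an in-frame exon near the start of the coding sequence. The sequences at that place are shown because the share of counts with and without the exon did not overlap between the groups. Such shares were common, at 29.5% of transcripts of genes with several tested transcripts. A test of a shift between the Tgfbr2 transcripts, given below, did not pass (edgeR adjusted p = 0.267). The exon has 75 bases, or 25 codons, lies on chromosome 9 from 116158271 to 116158345 (mm10, minus strand, exon 2, coding throughout) and is part of NM_009371, while NM_029575 joins the exons on both sides. Each line runs 5′ to 3′ in the direction of the RNA with 30 bases of the neighbouring exons. The capitals mark the exon in the first line, and in the second the last base before and the first base after the place where it is absent.
NM_009371: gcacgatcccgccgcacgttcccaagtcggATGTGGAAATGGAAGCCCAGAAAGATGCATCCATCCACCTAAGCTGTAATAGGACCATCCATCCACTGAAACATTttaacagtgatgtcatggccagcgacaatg
NM_029575: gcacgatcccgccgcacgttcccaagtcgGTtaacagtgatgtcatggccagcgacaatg
The exon encodes an insertion in the extracellular part of the receptor, known as the B form of the type II receptor, which can respond to Tgfb2 without betaglycan. The neighbouring exons run from 116174944 to 116175265 and from 116131545 to 116131713.

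Which members the ventricle expressed most was read from levels per length, counts divided by transcript length in kilobases and by library size (RPKM), the scale on which different genes can be compared. Betaglycan (Tgfbr3) had the highest mean, at 42.0 ± 4.17 RPKM (SD, n = 5), and the inhibitor Smad6 followed at 37.2 ± 4.77 RPKM (SD, n = 5). Their libraries overlapped, since Smad6 (44.4 RPKM) exceeded Tgfbr3 (42.5 RPKM) in caffeine replicate 3. Below a gap came the type I receptor Tgfbr1 (21.6 to 29.4 RPKM) and the ligand Tgfb1 (18.8 to 27.6 RPKM), whose ranges overlapped each other and, for Tgfb1, that of Smad3 (17.1 to 20.8 RPKM). A further step separated Tgfb2 (13.1 to 15.4 RPKM) and Tgfbr2 (11.5 to 15.1 RPKM), followed by Smad7 (mean 10.8 ± 0.741 RPKM, SD, n = 5) and Smad2 (9.52 to 10.9 RPKM), each overlapping its neighbour. Tgfb3 was lowest in all 5 libraries, at 4.32 to 5.94 RPKM. The transcript lengths come from gene models whose outer ends were set to the deposited coordinates, so the order depends on those models.

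**Figure D1:**
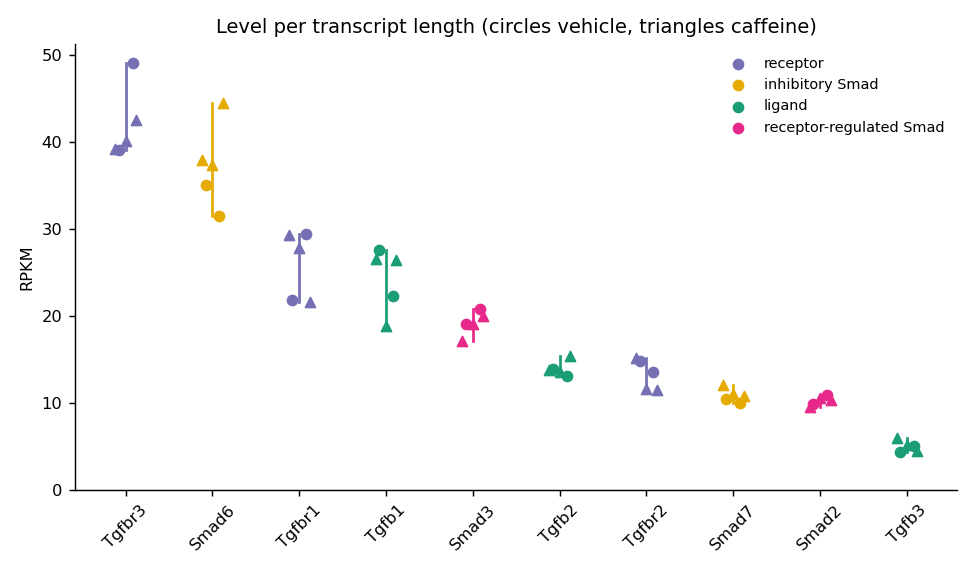
Level per transcript length (RPKM, counts per kilobase scaled to library size) of the 10 genes, ordered by their mean over 5 libraries; circles are the 2 vehicle libraries, triangles the 3 caffeine libraries, colours the role, and vertical lines the range. Tgfbr3 and Smad6 lie above the other genes in every library, and Tgfb3 lies below them at 4.32 to 5.94.

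Within the ligands, Tgfb1 made up most of the summed level per length in each library, 60.3% and 55.1% in vehicle and 57.5%, 50.3% and 57.1% in caffeine. Tgfb2 made up 29.6% to 36.1% and Tgfb3 9.43% to 13.6%, and the groups overlapped for all 3 shares. Among receptors, the level of Tgfbr1 was 1.47 and 2.18 times that of Tgfbr2 in the vehicle libraries and 1.94, 2.39 and 1.89 times in caffeine. Tgfbr3 was 2.60 to 3.71 times Tgfbr2. Smad3 was 1.80 to 1.94 times Smad2, a narrow range over all libraries on RefSeq counts. The Ensembl count was 74.7% of the RefSeq count for Smad2 and 100% for Smad3. The level of Smad2 and every ratio that holds it therefore depend on the annotation.

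The design sets ventricles exposed to caffeine in early gestation against those given saline. None of the 10 genes passed the test: with edgeR's quasi-likelihood test, 0 of 10 passed a false discovery rate (FDR) of 0.05, where 0.00723% of 13829 genes did, and adjusted p ran from 0.992 to 0.999. At an unadjusted p under 0.05 there were also 0 of 10, against 5.20% of all genes. DESeq2 and limma-voom passed 0 of 10 each at FDR 0.05, where they passed 0.130% and 0.00723% of all genes. The fold changes lay between -0.15 and 0.26 on the log2 scale, 5 positive and 5 negative, with a median of 0.00 beside 0.01 over all genes. Vehicle and caffeine libraries did not overlap for 2 genes, Smad6 and Smad7, both higher in caffeine, where the groups did not overlap for 20.4% of all genes and were higher in caffeine for 11.2% and lower for 9.27%. The count of 2 of 10 is near that background.

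The libraries of all 3 ligands overlapped between the groups. Tgfb1, on chromosome 7 (25687002 to 25704996, plus strand), had 57.8 and 46.6 CPM in the vehicle pools and 55.6, 39.5 and 55.2 CPM in the caffeine pools. Caffeine replicate 2 was lowest, and the other caffeine libraries lay inside the vehicle range. The log2 fold change of Tgfb1 was -0.06 (SE 0.17, edgeR adjusted p = 0.999), and without vehicle replicate 1 it was 0.10. Tgfb2, the ligand associated with the cushions, lies on chromosome 1 (186623186 to 186705992, minus strand) and had 65.6 and 61.9 CPM in the vehicle pools and 64.7, 64.0 and 72.9 CPM in the caffeine pools. Only caffeine replicate 3 was above both vehicle libraries, and the log2 fold change was 0.08 (SE 0.13). Tgfb3, on chromosome 12 (86056743 to 86079041, minus strand), had 14.6 and 17.0 CPM in the vehicle pools and 20.1, 17.3 and 14.8 CPM in the caffeine pools. The groups overlapped, with caffeine replicate 1 highest, and the log2 fold change was 0.14 (SE 0.18) and 0.02 without that library. Exons of Tgfb2 and Tgfb3 overlap GENCODE M21 gene models on the opposite strand (Gm29491, and Gm37804 and Gm48008). The counts of Tgfb2 and Tgfb3 are therefore uncertain where counting did not use strand.

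**Figure D2:**
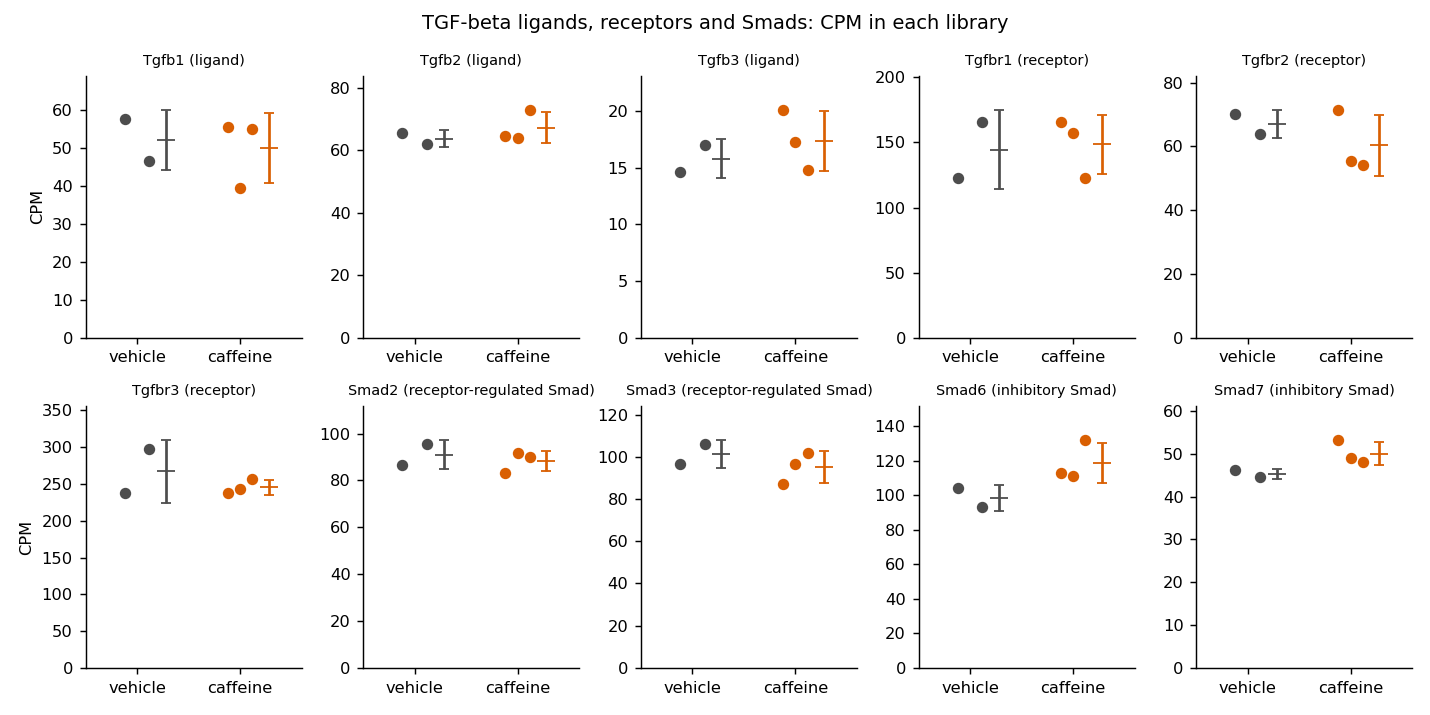
CPM of each of the 10 genes in the 2 vehicle (grey) and 3 caffeine (orange) libraries, with the group mean and SD beside the points; every axis starts at 0. Only Smad6 and Smad7 have all caffeine libraries above both vehicle libraries.

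Libraries overlapped for each receptor as well. Tgfbr1, on chromosome 4 (47353305 to 47414924, plus strand), had 123 and 166 CPM in the vehicle pools and 166, 157 and 123 CPM in the caffeine pools. The lowest library of each group was alike and so was the highest, and the log2 fold change was 0.04 (SE 0.17). Its 95% interval of -0.33 to 0.40 holds changes of up to 1.32-fold up and down to 0.80-fold. Tgfbr2, on chromosome 9 (116087695 to 116175363, minus strand), had 70.0 and 63.8 CPM in the vehicle pools and 71.4, 55.3 and 54.3 CPM in the caffeine pools. Caffeine replicates 2 and 3 were below both vehicle libraries and caffeine replicate 1 was above both, giving a log2 fold change of -0.15 (SE 0.15). Tgfbr3, on chromosome 5 (107106570 to 107289595, minus strand), had 237 and 297 CPM in the vehicle pools and 237, 243 and 257 CPM in the caffeine pools. Vehicle replicate 2 was the highest library, and the log2 fold change of -0.12 (SE 0.13) was 0.03 without it. An exon of Tgfbr3 overlaps the same-strand gene model Gm43422, which adds an assignment uncertainty.

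Libraries of both signal-carrying Smads overlapped between the groups. Smad2, on chromosome 18 (plus strand), had 86.7 and 95.4 CPM in the vehicle pools and 83.4, 91.6 and 90.0 CPM in the caffeine pools, a log2 fold change of -0.04 (SE 0.13). Its range over the 5 libraries was 0.19 on the log2 CPM scale, the smallest of the 10 genes, beside a median range of 0.46 over all genes. Smad3, on chromosome 9 (63646767 to 63757994, minus strand), had 96.8 and 106 CPM in the vehicle pools and 87.0, 96.5 and 102 CPM in the caffeine pools, a log2 fold change of -0.09 (SE 0.13). Caffeine replicate 1 was lowest and vehicle replicate 2 highest for both genes. Of the 45 pairs of members, Smad2 and Smad3 had the most similar profiles, with a root mean square difference of 0.047 between their log2 CPM values, each centred on its mean over 5 libraries. Tgfb1 and Tgfbr1 had the least similar profiles (0.359).

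The inhibitory Smads had the only values without overlap. Smad6, on chromosome 9 (63953076 to 64022059, minus strand), had 104 and 93.4 CPM in the vehicle pools and 113, 111 and 132 CPM in the caffeine pools. All caffeine libraries were above both vehicle libraries, with caffeine replicate 3 furthest, and the log2 fold change was 0.26 (SE 0.14, edgeR adjusted p = 0.992). The 95% interval, from -0.03 to 0.56, holds folds from 0.98 to 1.47. Without vehicle replicate 2 the value was 0.16 and without caffeine replicate 3 it was 0.18. Smad7, on chromosome 18 (plus strand), had 46.2 and 44.5 CPM in the vehicle pools and 53.2, 49.0 and 48.0 CPM in the caffeine pools, a log2 fold change of 0.14 (SE 0.13; edgeR adjusted p = 0.999). Per length, the summed level of Smad6 and Smad7 was 1.57 and 1.31 times that of Smad2 and Smad3 in vehicle and 1.87, 1.64 and 1.83 times in caffeine. The groups did not overlap in this ratio. Its numerator sums the same Smad6 and Smad7 values already seen not to overlap, so the ratio is not a further result. In the same libraries the summed cardiomyocyte markers did not overlap between groups, at 31300 and 29200 CPM in the vehicle pools and 25200, 26200 and 26700 CPM in the caffeine pools. Summed endocardial markers overlapped, at 1480 and 1590 CPM in the vehicle pools and 1530, 1330 and 1350 CPM in the caffeine pools. Of the 7 cardiomyocyte markers, 6 had negative fold changes and 4 were lower without overlap, where 9.27% of all genes were. Of the 8 endocardial and endothelial markers, 7 had negative fold changes and 1 was lower without overlap. The part of either cell type in the Smad6 and Smad7 values was not tested.

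**Figure D3:**
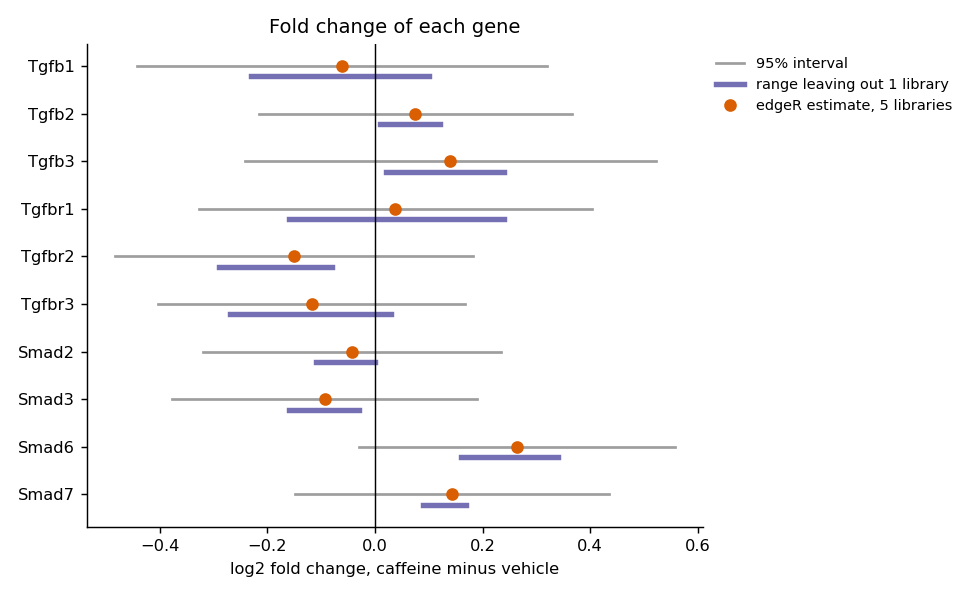
Log2 fold change (caffeine minus vehicle) of each gene with its 95% interval from edgeR (grey) and the range of estimates when 1 of the 5 libraries is left out (purple). All 10 intervals include 0, and the interval of Smad6 runs from -0.03 to 0.56.

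The tested genes whose profile over the 5 libraries was most like that of Smad6 were Samd1, Ppapdc1b and Rnf31, with root mean square differences of 0.016, 0.017 and 0.024 in centred log2 CPM. Samd1 had 53.1 and 46.5 CPM in the vehicle pools and 56.2, 54.7 and 65.8 CPM in the caffeine pools. None of the 3 passed (edgeR adjusted p = 0.999 each).

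Transcript counts were compared next, since Tgfbr2 and Smad2 each have a pair of RefSeq transcripts. With edgeR, 0 of 12 transcripts of the 10 genes passed FDR 0.05, where 0 of 18418 transcripts did. At an unadjusted p under 0.05 there was 1 of 12, NM_001252481 of Smad2, against 7.36% of all transcripts. Its log2 fold change was -0.77, and -0.68 without vehicle replicate 1. That fit leaves 1 vehicle library, so only its fold change is given. Without caffeine replicate 1, and also with no scaling, there were 2 of 12. The shares over all transcripts were not computed for these 2 fits, so nothing is drawn from their counts. DESeq2 passed 0 of 12 at FDR 0.05, where it passed 1.05% of all transcripts (194), and limma-voom passed 0 of 12 and 0 overall. Libraries did not overlap for 4 of 12 (NM_001252481 of Smad2 and NM_029575 of Tgfbr2, and the transcripts of Smad6 and Smad7), against 23.3% of all transcripts. The other 8 genes have 1 RefSeq transcript each in the table, with values as for the gene.

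The transcript of Tgfbr2 that holds the 75-base exon printed above, NM_009371, took 29.1% and 28.6% of the gene's counts in vehicle and 37.0%, 45.1% and 37.1% in caffeine. Every caffeine library was above both vehicle libraries, which differed little from each other. The mean share went from 28.8% ± 0.336 (SD, n = 2) to 39.7% ± 4.66 (SD, n = 3). NM_029575, which lacks the exon, had 49.6 and 45.3 CPM in the vehicle pools and 45, 30.2 and 34.2 CPM in the caffeine pools, a log2 fold change of -0.38 (SE 0.18, edgeR adjusted p = 0.740). NM_009371 had 20.3 and 18.2 CPM in the vehicle pools and 26.4, 24.8 and 20.1 CPM in the caffeine pools, a log2 fold change of 0.31 (SE 0.18; edgeR adjusted p = 0.816). In its CPM the groups overlapped, because caffeine replicate 3 was below vehicle replicate 1. A test of transcript usage, that is, of a shift between transcripts within a gene, gave Tgfbr2 an edgeR adjusted p of 0.267. The authors' Ensembl transcript table gave the same shares, 29.1% and 28.6% in vehicle and 37.0%, 45.1% and 37.0% in caffeine, from the same reads.

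Smad2 has a pair of RefSeq transcripts with different first exons, whose starts lie 19420 bases apart, and the same coding length of 1401 bases. NM_001252481, which begins at the downstream exon, had 15.2 and 13.5 CPM in the vehicle pools and 6.30, 9.72 and 9.26 CPM in the caffeine pools. All caffeine libraries were below both vehicle libraries, and the log2 fold change was -0.77 (SE 0.24, edgeR adjusted p = 0.513). Its share of the gene's counts was 17.6% and 14.2% in vehicle and 7.55%, 10.6% and 10.3% in caffeine. NM_010754, the upstream form, carried most of the gene's RefSeq counts. This form had 71.3 and 81.4 CPM in the vehicle pools and 77.0, 81.6 and 80.8 CPM in the caffeine pools (log2 fold change 0.06, SE 0.12). Transcript usage of Smad2 had an edgeR adjusted p of 0.141.

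Changed usage at FDR 0.05 was therefore called for 0 of the 2 genes with several tested transcripts, against 3.24% of 2897 such genes. At an unadjusted p under 0.05 it was 2 of 2, against 17.4%. That count was 0 of 2 without vehicle replicate 1, and 1 of 2 (Smad2) without vehicle replicate 2 or without caffeine replicate 2; with the Simes adjustment 0 of 2 passed FDR 0.05. Shares of single transcripts did not overlap between the groups for 29.5% of transcripts of such genes, so a share without overlap was common. On Ensembl counts, tried after these values were seen, 0 of 2 had an unadjusted p under 0.05. The share over all genes at that threshold is given for the main fit only. The edgeR adjusted p for usage on Ensembl counts was 0.467 for Smad2 and 0.230 for Tgfbr2. The Ensembl gene count of Smad2 was 74.7% of its RefSeq count over the 5 libraries. Both transcripts of each pair share most of their sequence, and whether the RNA or the assignment of reads differed was not tested.

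**Figure D4:**
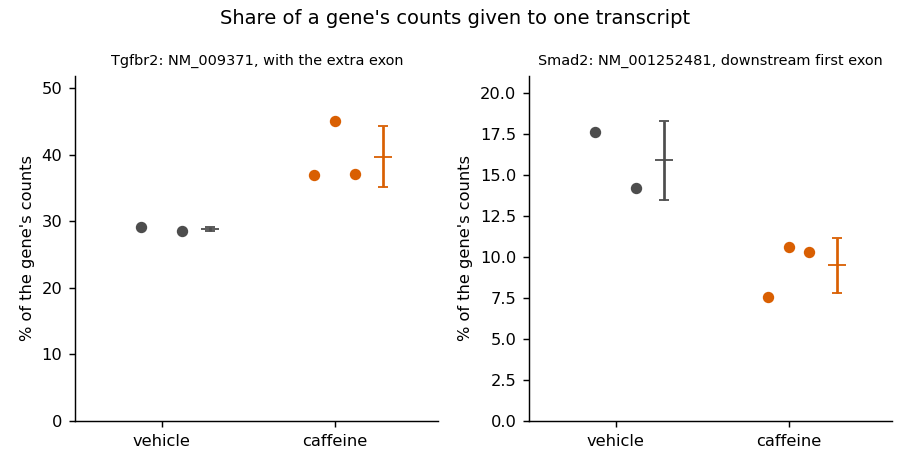
Percent of the gene's RefSeq counts given to NM_009371 of Tgfbr2 (left) and NM_001252481 of Smad2 (right) in each vehicle (grey) and caffeine (orange) library, with mean and SD. The caffeine libraries are all above vehicle on the left (37.0% to 45.1% against 28.6% and 29.1%) and all below on the right.

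The wider pathway was read from 6 lists holding 69 genes, 66 of them tested. No gene of these lists passed the test: 0 of 66 passed FDR 0.05 with edgeR, 1 of 66 had an unadjusted p under 0.05 (5.20% of all genes), and DESeq2 and limma-voom also passed 0. Their median log2 fold change was 0.05, with 39 positive and 27 negative values. Libraries did not overlap for 5 of the 66 (Lrrc33, Snai1 and Snai2 higher, Fbn1 and Col3a1 lower), against 20.4% of all genes.

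Smad4, the shared partner of Smad2 and Smad3, was listed with the activin branch, which uses the same Smads. All 11 tested genes of this list overlapped between groups, with a median of 0.17 and 8 positive. Smad4 itself had 95 and 114 CPM in the vehicle pools and 108, 119 and 139 CPM in the caffeine pools (log2 fold change 0.22, SE 0.15). The activin receptor Acvr2b had 0.37 (SE 0.26), and the activin subunit gene Inhba, under 2 CPM in every library, had 0.62 (SE 0.54). In the list of BMP-type Smads and endothelial receptors (6 tested, median 0.05, 5 positive), Smad9 had 0.22 (SE 0.20), Smad5 0.15 (SE 0.15) and the endothelial co-receptor Eng 0.08 (SE 0.13).

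Genes that hold the ligands latent or release them (12 tested, median 0.06, 7 positive) included the only one of the 66 with an unadjusted p under 0.05, fibrillin Fbn1, whose microfibrils anchor latent complexes. Fbn1 had 165 and 199 CPM in the vehicle pools and 158, 144 and 143 CPM in the caffeine pools, a log2 fold change of -0.29 (SE 0.13, edgeR adjusted p = 0.949). Caffeine libraries were all below vehicle, by little in caffeine replicate 1. The integrin Itgb8, an activator of latent ligand, had 2.76 and 6.83 CPM in the vehicle pools and 6.48, 8.90 and 7.58 CPM in the caffeine pools (0.68, SE 0.34), with vehicle replicate 1 apart. Lrrc33, listed under its current name Nrros, a latent-ligand anchor of macrophages, had 5.60 and 5.74 CPM in the vehicle pools and 7.39, 6.66 and 6.99 CPM in the caffeine pools (0.31, SE 0.20). Summed macrophage markers were 4 and 4.19 CPM in the vehicle pools and 11, 3.57 and 5.40 CPM in the caffeine pools, and their part in the Lrrc33 value was not tested.

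Inhibitors and ubiquitin regulators stayed in a narrow band (13 tested, -0.15 to 0.14, median 0.05, 7 positive). The deubiquitinase Usp15 had -0.15 (SE 0.13), and the co-repressors Ski and Skil had 0.12 (SE 0.12) and 0.14 (SE 0.18). The kinase branch through Map3k7 (6 tested, median 0.10, 4 positive) was led by Traf4 at 0.15 (SE 0.14), Tab2 at 0.14 (SE 0.14) and Map3k7 at 0.11 (SE 0.13).

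Transcriptional targets of the pathway divided evenly (18 tested, median -0.01, 8 positive and 10 negative). Col1a1, a fibrillar collagen gene, had 135 and 172 CPM in the vehicle pools and 337, 285 and 147 CPM in the caffeine pools, a log2 fold change of 0.74 (SE 0.37, edgeR adjusted p = 0.999). Caffeine replicates 1 and 2 were high and caffeine replicate 3 lay between the vehicle libraries. In a fit with the replicate number as a block, Col1a1 was the only gene of the 66 that passed (log2 fold change 1.02, adjusted p = 1.14e-06). There is no vehicle replicate 3, so that fit compares 2 pairs, has 1 residual degree of freedom and draws nothing from caffeine replicate 3; without this library and without the block, 0 of 66 passed. The cell cycle inhibitor Cdkn2b, under 1 CPM in every library, had -0.67 (SE 0.47), and the matricellular gene Ctgf 0.23 (SE 0.16). Cushion mesenchyme markers summed to 905 and 1250 CPM in the vehicle pools and 868, 990 and 1030 CPM in the caffeine pools, and epicardial markers to 357 and 407 CPM in the vehicle pools and 509, 431 and 363 CPM in the caffeine pools. Both overlapped between groups.

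**Figure D5:**
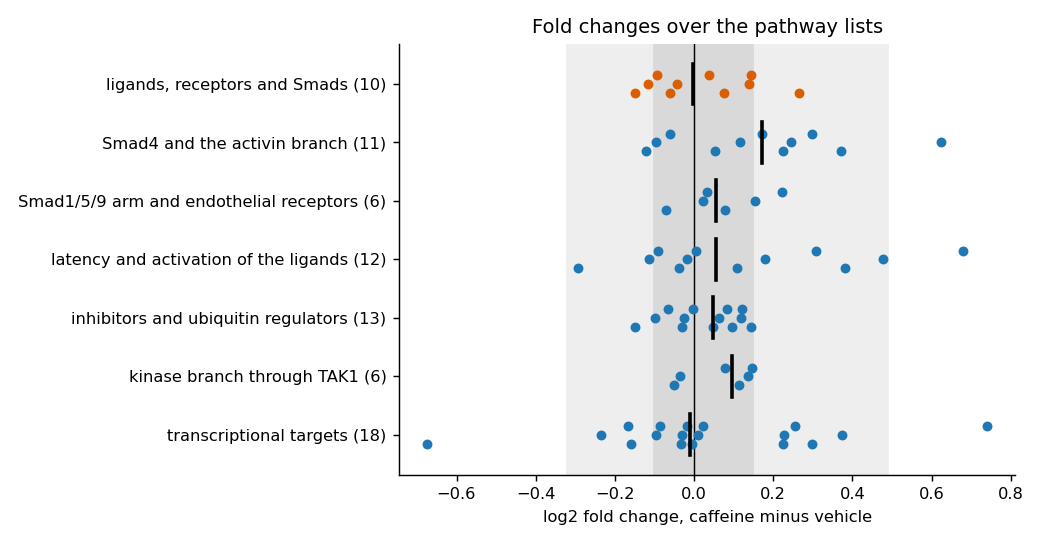
Log2 fold change (caffeine minus vehicle) of the 10 genes (orange) and of the tested genes of 6 pathway lists (blue), with the number tested in brackets and list medians as black bars; grey bands hold the middle of all 13829 genes (dark, 25th to 75th percentile, -0.10 to 0.15; light, 5th to 95th, -0.32 to 0.49). The orange points span -0.15 to 0.26.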

How the data were processed

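RNA libraries were counted per gene and per transcript. The authors deposited estimated counts, which need not be whole and are not scaled between libraries, on RefSeq and Ensembl release 71 annotations, per the file headers. TopHat, Partek, mm10 and GRCm38 appear in the submitters' processing notes without roles or versions, and use of strand in counting is not given in the sources used here. Printed gene ends are the deposited stop minus 1.

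The counts were rounded, filtered with filterByExpr, scaled by TMM (0.970 to 1.02) and tested with edgeR 4.0.16 (R 4.3.3; robust quasi-likelihood, two-sided, Benjamini-Hochberg over all 13829 genes or 18418 transcripts). Standard errors (SE) were derived from the fold change and its F statistic. Usage was tested with diffSpliceDGE over 2897 genes. The alternatives tried were scaling by RLE, by the upper quartile or not at all, other filters (none, or 5 CPM in 2 libraries), no robust estimation, DESeq2 1.42.0, limma 3.58.1 (voom), Ensembl counts, a replicate block, FDR 0.1 and leaving out each library; those for single transcripts and Ensembl usage were added after seeing the data. Exon borders and the printed sequences come from GENCODE M21 (GRCm38), matched by RefSeq accession for all 12 transcripts. The common biological coefficient of variation was 0.145. On simulated data drawn for this comparison (13712 genes, 200 changed), 92.0% of genes changed by 1 on the log2 scale were recovered and 99.0% of those changed by 2. The transcript test (18164 transcripts) recovered 45.0% and 89.0%, and the usage test (2846 genes) 25.6% and 78.6%. False calls made up 6.83%, 4.96% and 6.52% of the calls of the gene, transcript and usage tests. Only features with a mean log2 CPM above 1 were changed. Recovery of changes as small as those of the 10 genes (-0.15 to 0.26) was not tested.

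The members and lists were chosen with earlier results of these data known. Named were all 10 genes, their transcripts, up to 3 genes with the smallest p of each list and the 3 profiles nearest to the member with the smallest p; Lrrc33, Snai1, Snai2, Fbn1 and Col3a1 are also named for not overlapping, seen afterwards. The labels do not say that pools were of separate litters in each case, so p-values measure the spread between these libraries.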

Additional observations from a re-analysis of the deposited data

How the results depend on the processing

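None of the 10 genes, their 12 transcripts or their usage passed under any setting run, with 0 called in each fit, each of those leaving out 1 library included. Counts of pathway genes were also 0, without each library too, except 1 (Col1a1) with the replicate block, a fit with 1 residual degree of freedom in which 52 genes passed overall and 0 of the 10. The labels do not tie the replicate numbers to a shared litter or day. Same-numbered libraries deviated together by correlations of -0.02 and 0.13, and differently numbered ones by -0.13 and 0.02. With 2 vehicle libraries, 1 deviation mirrors the other, so these correlations cannot decide whether a number marks a shared litter or day. Usage with the block gave edgeR adjusted p values of 0.296 for Smad2 and 0.314 for Tgfbr2, and 2 genes passed overall against 94 without it. Without vehicle replicate 1 they were 0.508 and 0.529, and over all settings they ran from 0.141 to 0.722 for Smad2 and from 0.213 to 1 for Tgfbr2.

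Over the alternatives for fold changes, 195 values kept their sign and their side of the threshold and 11 changed sign. The changes of sign were in Tgfb1, Tgfbr1, Tgfbr3, Smad2 and the Smad2 transcript NM_010754. Their main estimates lay between -0.12 (Tgfbr3) and 0.06 (NM_010754), and the cause was not tested. Leaving out 1 library, Tgfb1 ran from -0.23 to 0.10 (0.10 without vehicle replicate 1, 0.08 without the second caffeine library), Tgfbr1 from -0.16 to 0.24 (negative without vehicle replicate 1, or, at -0.05 and -0.01, without caffeine replicate 1 or 2), Tgfbr3 from -0.27 to 0.03 (0.03 without vehicle replicate 2) and Smad2 from -0.11 to 0.00 (0.00 without vehicle replicate 2). With no scaling Tgfb1 became 0.00 and Smad2 0.02, with Ensembl counts Smad2 became 0.01, and its transcript NM_010754 ran from -0.03 (without vehicle replicate 1) to 0.13. Leaving out 1 library, Tgfb2 ran from 0.01 to 0.12, Tgfb3 from 0.02 to 0.24, Tgfbr2 from -0.29 to -0.08 and Smad3 from -0.16 to -0.03. Over all settings Smad6 ran from 0.16 to 0.34 and Smad7 from 0.09 to 0.20. With no scaling Smad6 had an unadjusted p under 0.05 (edgeR adjusted p = 0.786, the lowest over its settings, which reached 1). The share of all genes under that threshold in this fit is not given. Without scaling, the fold changes of all 10 genes lay higher than in the main fit, as for Smad6 (0.26 to 0.33) and Smad7 (0.14 to 0.20). With 2 and 3 libraries, the 95% intervals of the 10 genes hold changes up to 1.47-fold (Smad6).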
